A study of Mus musculus with 4 samples.

Results

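The globin genes of the alpha cluster (Hba-x, Hba-a1 and Hba-a2) and of the beta cluster (Hbb-bs, Hbb-bt, Hbb-bh1 and Hbb-y) were examined in RNA-seq libraries of mouse liver myeloid cells. Members were the rows whose gene name matched one of these symbols, and all 7 were found among the 24706 genes of the files. Of them, 4 are adult genes and 3 are embryonic genes. The study asked how deletion of PD-1, an inhibitory receptor encoded by Pdcd1, changes gene expression in myeloid cells.

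Expression was measured by sequencing in 4 libraries, 2 labelled wt and 2 labelled cko. The wt libraries come from PD-1f/f mice and the cko libraries from PD-1f/f; LysM-Cre mice, so that both groups carry the Pdcd1 allele flanked by LoxP sites, and the cko mice also carry Cre recombinase expressed from the lysozyme gene Lyz2 in myeloid cells. The methods call the controls wild-type, and the strain of these mice is not given in the sources used here. The cells are described both as CD11b+ cells sorted from the liver at postnatal day P3 and, in the methods, as livers at P2 with no sort named. Whether each library came from 1 animal is not given either, and p-values then measure only the spread between these samples, which may be technical.

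Haemoglobin is built from alpha-type and beta-type chains, each holding a heme group. In the mouse, Hba-x (zeta), Hbb-bh1 (beta h1) and Hbb-y (epsilon y) serve the primitive red cells of the yolk sac, and Hba-a1, Hba-a2, Hbb-bs and Hbb-bt serve the definitive red cells that arise in the fetal liver and later in the bone marrow and spleen. The liver still makes red cells around birth, and globin RNA is among the most abundant RNAs of maturing erythroblasts and reticulocytes, while myeloid cells are not known for it.

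Total counted reads lay between 17691505 and 22212407 per library. Pdcd1, the targeted gene, had 28.5 and 34.7 FPKM (fragments counted on a gene, per unit of its length and of library depth) in wt 1 and wt 2 and 17.1 and 21.4 FPKM in cko 1 and cko 2 (log2 fold change -0.69, standard error 0.19, adjusted p = 0.218, limma). The myeloid label was met by Itgam, which encodes CD11b, at 48.5 to 54.3 FPKM over the libraries and by the neutrophil granule gene Ngp at 35443 FPKM or more, whereas Alb, the main plasma protein gene of hepatocytes, stood at 6.13 to 12.4 FPKM. Among the libraries, wt 2 alone had the Y-linked Ddx3y above 1 FPKM, at 24.9 FPKM, so that a male library stood in the wt group only. The top 10 genes by level held a larger part of all FPKM in wt (46.6% and 42.3%) than in cko (33.1% and 29.4%).

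The alpha genes lie on the plus strand of chromosome 11 (GRCm38), in the order Hba-x (32276400 to 32278116), Hba-a1 (32283511 to 32284465) and Hba-a2 (32296489 to 32297298). The beta genes lie on the minus strand of chromosome 7, with Hbb-y at 103851749 to 103853216, Hbb-bh1 at 103841637 to 103843164, Hbb-bs at 103826534 to 103828096 and Hbb-bt at 103812524 to 103813996. Each gene has 3 exons in its principal transcript, and in both clusters the embryonic genes come first along the direction of transcription.

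Within each cluster the adult genes are near copies of each other, which bears on how their reads can be assigned. The coding sequences of Hba-a1 and Hba-a2 (426 bases without the stop codon) were identical but for C381T, and those of Hbb-bs and Hbb-bt (441 bases) but for C417T, an identity of 99.77% in both pairs. Positions count from the first base of the start codon, and both changes lie at the third base of a codon in exon 3. The stretches that separate the copies are shown 5′ to 3′ on the coding strand, with the differing base in capitals. They lie at chr11:32284318-32284358 (Hba-a1), chr11:32297135-32297175 (Hba-a2), chr7:103826677-103826717 (Hbb-bs) and chr7:103812668-103812708 (Hbb-bt).
Hba-a1: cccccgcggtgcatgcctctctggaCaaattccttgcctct
Hba-a2: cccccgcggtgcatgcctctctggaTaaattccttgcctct
Hbb-bs: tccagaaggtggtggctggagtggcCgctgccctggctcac
Hbb-bt: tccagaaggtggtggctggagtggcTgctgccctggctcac

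The annotated transcripts of the copies also differ in their ends. In the alpha pair, exon 1 has 291 bases in Hba-a1 and 130 in Hba-a2, and exon 3 has 203 and 219 bases. In the beta pair, exon 1 has 145 bases in Hbb-bs and 219 in Hbb-bt, and exon 3 has 260 and 261 bases. In both pairs the shares below thus reflect these ends as well as the coding change. The 50-base windows of the principal transcripts were sought in the annotated transcripts of all other genes. For Hba-a1 32.5% and for Hba-a2 13.1% of the windows occurred in none of them, against 34.2% for Hbb-bs and 41.7% for Hbb-bt. With windows of 100 bases these shares were 43.5%, 25.5%, 37.4% and 45.2%. Within the coding sequence alone, the 50-base shares were lower, at 12.2% for each adult alpha gene and 6.38% for each adult beta gene. Sequence outside transcripts was not searched. Exon 1 of Hba-a1 begins before its RefSeq start (32283672), in bases that also lie before the RefSeq start of Hba-a2. The shares therefore do not show how well reads can be placed in the genome. The read length and the treatment of reads that match both copies are not given in the sources used here, so the split of reads within each pair is uncertain. The Hbb haplotype of these mice is not given either, and Hbb-bs and Hbb-bt are read here as the gene models of the reference genome. All windows of Hba-x, Hbb-bh1 and Hbb-y were found in no transcript of another gene. Their coding sequences shared 62.79% (Hba-x with Hba-a1), 73.92% (Hbb-bh1 with Hbb-bs) and 74.38% (Hbb-y with Hbb-bs) of aligned bases with the adult genes, and 76.42% between Hbb-bh1 and Hbb-y.

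Promoters are shown for an adult alpha gene, an adult beta gene and an embryonic beta gene, as 1 example of each class. The RefSeq promoter table (GRCm38.p6) held 6 of the 7 members, and the 130 bases before the RefSeq start are given, at chr11:32296362-32296491 (Hba-a2, plus strand), chr7:103827929-103828058 (Hbb-bs, minus strand) and chr7:103853208-103853337 (Hbb-y, minus strand). Capitals mark, on either strand, the motif CACCC bound by KLF1-type factors, the CCAAT box, the TATA box written TATAAA, and the motifs of GATA factors, AGATAA and its variant TGATAA.
Hba-a2: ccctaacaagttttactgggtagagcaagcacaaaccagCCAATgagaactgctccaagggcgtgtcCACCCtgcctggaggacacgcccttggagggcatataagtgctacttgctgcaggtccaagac
Hbb-bs: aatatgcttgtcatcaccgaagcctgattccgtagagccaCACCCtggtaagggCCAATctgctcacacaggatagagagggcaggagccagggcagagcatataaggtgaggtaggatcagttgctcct
Hbb-y: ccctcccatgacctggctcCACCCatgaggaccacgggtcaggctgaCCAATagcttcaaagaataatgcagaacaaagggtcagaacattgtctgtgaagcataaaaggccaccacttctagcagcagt

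In these sequences CCAAT lay from -91 to -87 before the Hba-a2 start, from -76 to -72 before the Hbb-bs start and from -83 to -79 before the Hbb-y start, with a CACCC box within the same 130 bases in each. At Hbb-bs the CACCC box was part of CACACCC (-92 to -86). An exact TATAAA lay from -28 to -23 at Hbb-bt and Hba-x and in none of the printed sequences. Variants of the TATA box were not searched, so the printed promoters may hold one. In the promoter table, whose windows run from 250 bases before to 50 bases after the start, CACCC was found in 57.5% of all 32851 windows, CACACCC in 7.95%, CCAAT in 37.4%, TATAAA in 13.6%, AGATAA in 11.2% and TGATAA in 9.05%. The windows of Hba-a1 and Hba-a2, set 3 bases apart, were identical over all 297 bases compared. The embryonic Hbb-y thus held both CACCC and CCAAT, as the adult Hba-a1, Hba-a2, Hbb-bs and Hbb-bt did. The embryonic Hba-x held CACCC and no CCAAT in its window, and Hbb-bh1 had no window to search.

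Hba-a1 had the highest level of the globin genes in every library. It stood at 1961 FPKM (35368 reads) in wt 1, 1366 FPKM (20879 reads) in wt 2, 826 FPKM (12566 reads) in cko 1 and 840 FPKM (12072 reads) in cko 2. Both cko libraries thus lay below both wt libraries, and the wt libraries were farther apart than the cko libraries. By FPKM it ranked 22 and 24 among all genes in the wt libraries and 46 and 44 in the cko libraries. The log2 fold change of FPKM + 1, cko over wt, was -0.97 (standard error 0.20, adjusted p = 0.206, limma).

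Hbb-bs, the stronger of the adult beta genes, followed with 1007 FPKM (17177 reads) in wt 1, 653 FPKM (9446 reads) in wt 2, 358 FPKM (5146 reads) in cko 1 and 424 FPKM (5760 reads) in cko 2. Again the groups did not overlap. On the log2 scale it differed by -1.06 (standard error 0.24, adjusted p = 0.210, limma), which passes the threshold of the study's results (|log2FC| above 1 and unadjusted p under 0.01) and not that of its methods (|log2FC| of at least 1 and adjusted p under 0.05). Without wt 1 the log2 fold change was -0.75, without cko 1 it was -0.94, and without cko 2 it was -1.18, each with a p above 0.01, so that the call needs these 3 libraries. Without wt 2, the male library, it was -1.37.

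Hbb-bt was uneven within the wt group. It had 354 FPKM (5525 reads) in wt 1, 56.4 FPKM (746 reads) in wt 2, 36.3 FPKM (478 reads) in cko 1 and 41.3 FPKM (514 reads) in cko 2. The value of wt 1 stood far above the other three libraries, and the cko libraries lay below both wt libraries. The log2 fold change was -1.84 with a standard error of 0.80 (adjusted p = 0.330, limma). It was -0.53 without wt 1 and -3.16 without wt 2, so that the size of the difference rests on which wt library is used.

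Hba-a2 was the lowest of the adult genes, at 5.87 FPKM (87 reads) in wt 1, 5.66 FPKM (71 reads) in wt 2, 3.44 FPKM (43 reads) in cko 1 and 15.2 FPKM (179 reads) in cko 2. The groups overlapped, with the highest and the lowest value both in the cko group. The log2 fold change of 0.33 was smaller than its standard error of 0.58 (adjusted p = 0.806, limma). It was 1.26 without cko 1 and -0.61 without cko 2.

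**Figure D1:**
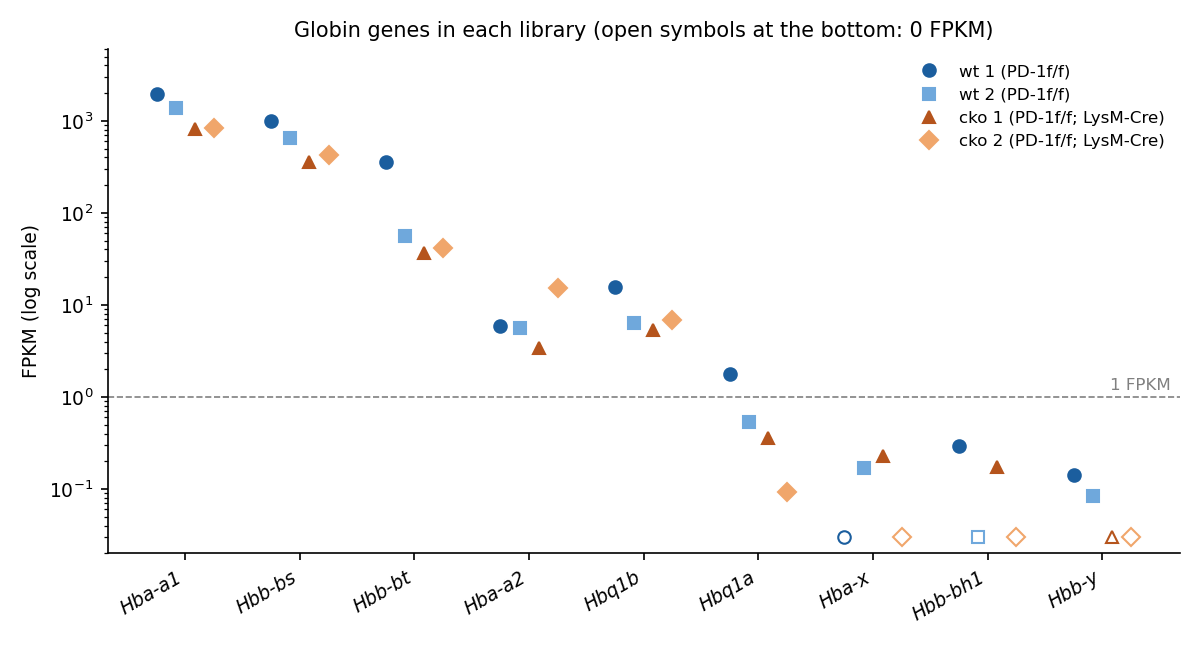
FPKM of each globin gene in each library on a log axis, with circles and squares for wt 1 and wt 2, triangles and diamonds for cko 1 and cko 2, and open symbols at the bottom for libraries at 0. Hba-a1 lies between 826 and 1961 FPKM, Hbb-bs between 358 and 1007 FPKM, and every value of Hba-x, Hbb-bh1 and Hbb-y lies under 1 FPKM.

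The order Hba-a1, Hbb-bs, Hbb-bt and Hba-a2 was the same in all 4 libraries. Of the 4 adult genes tested, 3 had both cko libraries below both wt libraries, where this held for 18.0% of the 10779 tested genes, and 0 had both above, where 33.6% of tested genes did. By the threshold of the results 1 of the 4 was lower, against 0.408% of all tested genes lower and 2.29% in either direction, and by that of the methods 0 were, against 0% of all tested genes. At an unadjusted p under 0.05, 2 of the adult genes differed, both lower, where 4.95% of all tested genes were lower. The voom method of limma on recovered reads called the same numbers, 0, 1 and 2. The 4 adult genes are pairs of near copies with an uncertain split of reads, so they are not 4 separate observations and these counts are descriptive. Relative to all tested genes, whose median log2 fold change was 0.09, only 0.798% had a log2 fold change at or below that of Hbb-bs and 0.993% at or below that of Hba-a1. In bulk samples such as these, fewer red cells and less globin RNA per cell cannot be told apart.

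The embryonic genes were at the limit of detection in all libraries. Hba-x had 0 reads in wt 1, 3 reads (0.170 FPKM) in wt 2, 4 reads (0.228 FPKM) in cko 1 and 0 reads in cko 2. Hbb-bh1 had 4 reads (0.294 FPKM) in wt 1, 0 in wt 2, 2 (0.174 FPKM) in cko 1 and 0 in cko 2. Hbb-y had 2 reads (0.142 FPKM) in wt 1, 1 read (0.0839 FPKM) in wt 2 and 0 in both cko libraries. No library held reads of all 3 genes, and none of the 3 reached the mean of 1 FPKM needed for a test. A count of 0 allows up to 3 reads, which for Hbb-y is 0.253 FPKM in cko 1 and 0.268 FPKM in cko 2, above both wt values, so a difference was not detectable at this depth.

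Summed over the 3 genes, embryonic reads made up 6 of 58163 globin reads in wt 1 (0.0103%, 95% Clopper-Pearson interval 0.00379 to 0.0225), 4 of 31146 in wt 2 (0.0128%, 0.0035 to 0.0329), 6 of 18239 in cko 1 (0.0329%, 0.0121 to 0.0716) and 0 of 18525 in cko 2, which allows a share of up to 0.0162% by the limit of 3 reads and 0.0199% by the Clopper-Pearson interval. The intervals cover counting error only. All of them overlap, that of cko 2 included, and the groups overlap (exact permutation p = 1, two-sided, on the share of globin FPKM).

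Alpha and beta output was compared by sums within each library. The adult alpha genes took 0.400% and 0.300% of all FPKM in wt 1 and wt 2 and 0.201% and 0.212% in cko 1 and cko 2. The adult beta genes took 0.277% and 0.155% in wt and 0.0954% and 0.115% in cko. Both shares were lower in both cko libraries, with differences of -0.144 and -0.111 percentage points. The exact two-sided permutation p was 0.33 for each, the smallest that 2 against 2 libraries can give.

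The ratio of alpha to beta FPKM was 1.44 in wt 1, 1.93 in wt 2, 2.11 in cko 1 and 1.84 in cko 2. The groups overlapped, with a difference of 0.24 in the log2 ratio (exact permutation p = 0.667, two-sided). The low value of wt 1 went with its high Hbb-bt: between the main genes alone, Hba-a1 over Hbb-bs, the ratios were 1.95, 2.09, 2.31 and 1.98.

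The share of the minor copy within each pair singled out 1 library for each pair. Hbb-bt took 24.3% of the reads of Hbb-bs and Hbb-bt together in wt 1 (95% Clopper-Pearson interval 23.8 to 24.9), and 7.32%, 8.50% and 8.19% in wt 2, cko 1 and cko 2. In FPKM of the pair, summed before the fit, the beta genes had 1361, 710, 394 and 465 FPKM and differed by -1.20 on the log2 scale (standard error 0.32, adjusted p = 0.215, limma). Hba-a2 took 0.245%, 0.339% and 0.341% of the reads of its pair in wt 1, wt 2 and cko 1, and 1.46% (1.26 to 1.69) in cko 2. The alpha pair, at 1967, 1372, 829 and 856 FPKM, differed by -0.96 (standard error 0.20, adjusted p = 0.206, limma). The uneven splits of wt 1 and cko 2 lie outside the intervals of the other libraries and do not follow the groups.

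**Figure D2:**
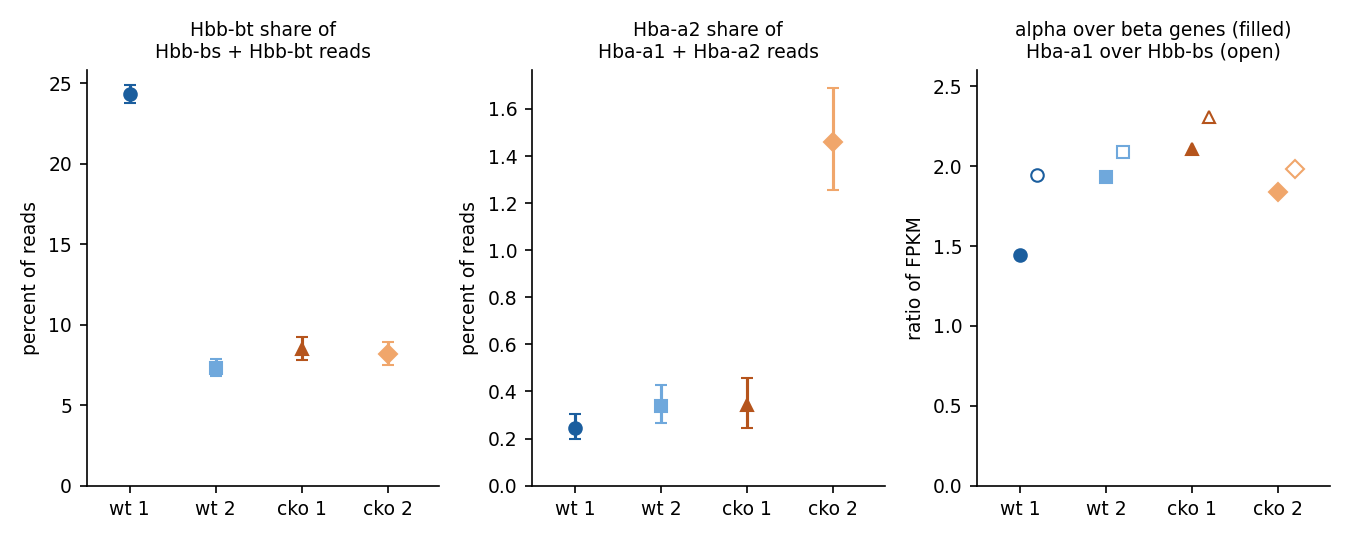
Share of Hbb-bt (left) and of Hba-a2 (middle) in the reads of its pair, in percent with 95% Clopper-Pearson intervals, and the ratio of FPKM of the alpha over the beta genes (right, filled) and of Hba-a1 over Hbb-bs (right, open), in each library. The Hbb-bt share is 24.3% in wt 1 and at most 8.50% elsewhere, the Hba-a2 share is 1.46% in cko 2 and at most 0.341% elsewhere, and the open symbols lie between 1.95 and 2.31.

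Other genes of the globin family were low. Hbq1b, a theta-type gene of the alpha cluster, had 15.8, 6.30, 5.30 and 6.86 FPKM in wt 1, wt 2, cko 1 and cko 2, and its groups overlapped (log2 fold change -0.66, standard error 0.40, adjusted p = 0.450, limma). Its copy Hbq1a had 24, 6, 4 and 1 reads. The pseudogene Hba-ps4 had 0 reads in both wt and 2 reads in each cko library, under the 3 reads that a count of 0 allows. Adgb stayed at or under 0.228 FPKM, Cygb at or under 0.319 FPKM, and Ngb was above 0 in wt 1 only, at 0.261 FPKM. Hbq1a and Hbq1b are near copies whose reads may be split unevenly, and both had their highest value in wt 1, as did Hba-a1, Hbb-bs and Hbb-bt.

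The genes that accompany globin synthesis were taken as lists. Of the 13 tested genes for heme supply, 9 had lower and 4 higher values in cko, and 0 passed either threshold. With limma 4 had an unadjusted p under 0.05, where 16.4% of all tested genes did. Voom, fitted to 11 of the 13, called 0 with 3 at p under 0.05. Alas2, the erythroid enzyme that starts heme synthesis, had 158 and 116 FPKM in wt and 85.6 and 84.2 FPKM in cko (log2 fold change -0.67, standard error 0.19, adjusted p = 0.223, limma). Fech, which inserts iron into the ring, had 82.7 and 64.6 FPKM in wt and 52.7 and 48.2 FPKM in cko. Both genes had groups that did not overlap, as did 18.0% of all tested genes in this direction, and the list median was -0.29 beside 0.09 for all tested genes. This median was -0.16 without wt 1 and -0.43 without wt 2. Values were also scaled by the summed FPKM of the genes outside the globin, erythroid and hepatocyte lists (the outside genes). The list median was then -0.09, beside 0.27 for all tested genes. The chaperone gene Ahsp was on the list but was not found by that name among the measured genes, so it has no values here.

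All 15 tested genes of the red cell membrane had lower values in cko, with a list median of -0.48, and 10 of them had groups apart, against 18.0% of all tested genes. The median was -0.22 without wt 1, -0.91 without wt 2 and -0.30 with scaling to the outside genes, beside 0.27 for all tested genes under the last. By the threshold of the results 2 passed, both lower, where 0.408% of all tested genes did. Epb42, which encodes protein 4.2, had 4.69 and 4.31 FPKM in wt and 1.52 and 1.84 FPKM in cko (log2 fold change -1.04, adjusted p = 0.199, limma). Dmtn, which encodes the actin-bundling protein dematin, had 16.1 and 11.1 FPKM in wt and 7.38 and 5.13 FPKM in cko (log2 fold change -1.01, adjusted p = 0.214, limma). Slc4a1, the anion exchanger band 3, had 113, 68.4, 59.5 and 58.0 FPKM and a log2 fold change of -0.58 (adjusted p = 0.332, limma).

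Among the 16 tested genes of late red cell maturation, 14 had lower values in cko, with a list median of -0.40. With scaling to the outside genes this median was -0.19, beside 0.27 for all tested genes. By the threshold of the results 1 gene passed as lower, where 0.408% of all tested genes did. This was Bpgm, the enzyme that makes the regulator of oxygen release bisphosphoglycerate, at 44.3 and 25.8 FPKM in wt and 16.0 and 14.3 FPKM in cko (log2 fold change -1.11, adjusted p = 0.214, limma). Car2, a carbonic anhydrase, had 249, 171, 133 and 146 FPKM (log2 fold change -0.56), and Bnip3l, which acts in the removal of mitochondria, had 132, 139, 114 and 103 FPKM (log2 fold change -0.32). Neither passed.

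Regulators of the globin genes were taken as activators and repressors. Of 8 tested activators 6 had lower and 2 higher values in cko, with a median of -0.12 and 0 past either threshold. With limma 1 had an unadjusted p under 0.05, beside 16.4% of all tested genes. Voom, fitted to 9 activators, had 2 at p under 0.05 and also called 0. The median was -0.30 without wt 1 and -0.02 without wt 2 or cko 2. It turned to 0.05 with scaling to the outside genes, under which the median of all tested genes was 0.27. Nfe2, Mafg and Lyl1, the most abundant of the list, had log2 fold changes of -0.01, 0.04 and -0.35. Klf1, which binds the CACCC boxes of the adult beta genes, was 25.5 and 19.7 FPKM in wt and 16.3 and 13.4 FPKM in cko (log2 fold change -0.57, adjusted p = 0.261, limma), and Gata1 was 14.5, 7.50, 5.89 and 5.96 FPKM (log2 fold change -0.73, adjusted p = 0.314, limma). Both are named here after their values were seen.

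Of 9 tested repressors of the embryonic genes, 7 had higher and 2 lower values in cko, with a median of 0.15 and 0 past either threshold. With limma 1 had an unadjusted p under 0.05, beside 16.4% of all tested genes. Voom, fitted to 11 repressors, had 3 at p under 0.05 and also called 0. The median was 0.04 without wt 1, 0.03 without cko 1, 0.06 with median-of-ratios scaling and 0.35 with scaling to the outside genes, beside 0.27 for all tested genes under the last. Dnmt1, the maintenance DNA methyltransferase, had a log2 fold change of 0.14, Chd4, a chromatin remodeller of the NuRD complex, 0.34, and Mbd2, which binds methylated DNA, 0.39. Bcl11a, a repressor of embryonic and fetal globin genes, had 1.61 and 2.65 FPKM in wt and 1.13 and 1.02 FPKM in cko (log2 fold change -0.57, adjusted p = 0.352, limma), and is named here after its values were seen. In the fetal programme, Igf2bp3 was tested, with a log2 fold change of 0.14, while Lin28b stayed at or under 0.377 FPKM and Igf2bp2 at or under 0.464 FPKM. These genes are also expressed outside the red cell lineage, so that their levels in these libraries are not those of red cells alone.

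Of the genes that neighbour the alpha cluster, Snrnp25 was the only one tested, at 15.3, 17.5, 13.9 and 11.1 FPKM (log2 fold change -0.37, adjusted p = 0.370, limma). Nprl3, whose introns hold the alpha globin enhancers, had 1.02, 0.526, 0.740 and 0.746 FPKM, and Mpg had 0.624, 1.18, 0.953 and 0.964 FPKM. Both had overlapping groups.

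Of the 3 tested genes that clear haemoglobin and heme, 2 had higher and 1 had lower values in cko. Hmox1, the heme oxygenase, had 84.3 and 68.7 FPKM in wt and 135 and 257 FPKM in cko and passed the threshold of the results (log2 fold change 1.28, standard error 0.32, adjusted p = 0.214, limma), where 1.88% of all tested genes passed as higher. Hp, which encodes the haemoglobin binder haptoglobin, had 1064 and 1048 FPKM in wt and 1668 and 1445 FPKM in cko (log2 fold change 0.56, adjusted p = 0.214, limma), short of the fold needed. Hpx, the heme binder, had 1.50, 6.73, 3.35 and 3.13 FPKM with overlapping groups. The call of Hmox1 was lost without a filter, with median-of-ratios scaling, without a trend and with the replicate block. Over the 67 tested genes of all these lists, 3 passed as lower and 1 as higher, where 0.408% and 1.88% of all tested genes did. Epb42, Dmtn, Bpgm and Hmox1 each lost the call when 3 of the 4 libraries were left out in turn, and their log2 fold changes without wt 1 were -0.99, -0.75, -0.74 and 1.43.

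**Figure D3:**
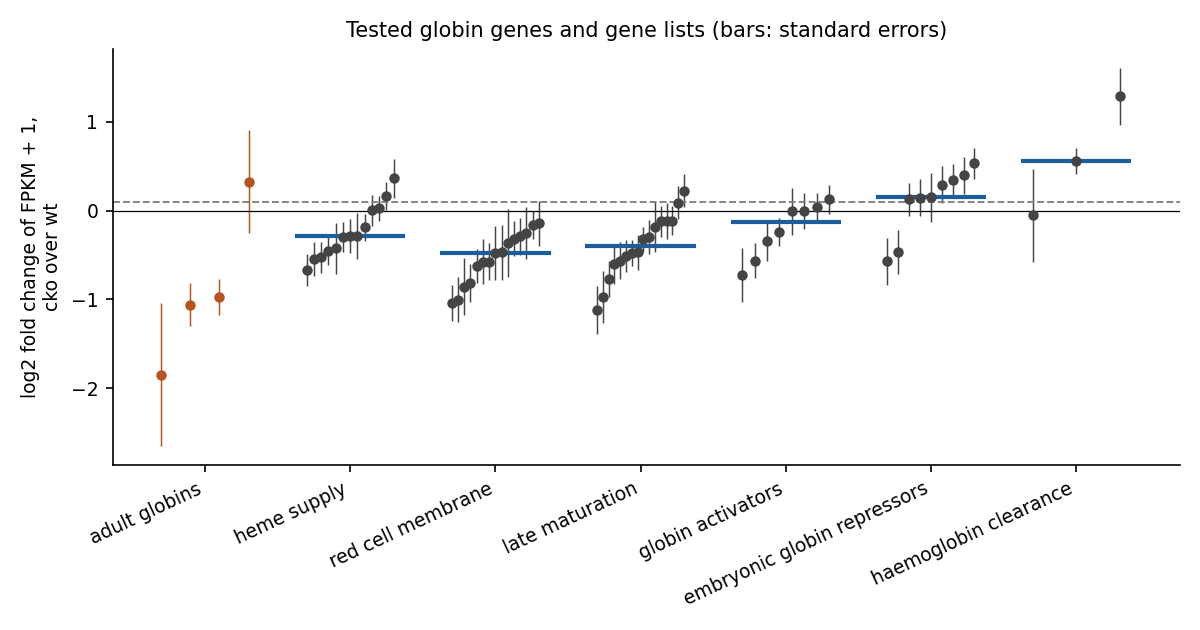
Log2 fold change of FPKM + 1 (cko over wt) of the tested genes, with standard errors, for the adult globins and for 6 lists of genes that act with them; blue bars are list medians and the dashed line is the median of all tested genes. All 15 genes of the red cell membrane lie below 0, and 7 of the 9 repressors of the embryonic genes lie above it.

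Markers of other cell types were measured beside the globin genes. All 19 tested genes of the erythroid marker list, which shares genes with the lists above, had lower values in cko, with a median log2 fold change of -0.58, and their summed level was 766 and 511 FPKM in wt and 406 and 382 FPKM in cko. The adult globin sum was 4.34 and 4.07 times the erythroid sum in wt 1 and wt 2 and 3.01 and 3.46 times in cko 1 and cko 2, a difference of -0.38 in the log2 ratio (exact permutation p = 0.33, two-sided, the smallest possible). This ratio does not depend on the scaling between libraries, and both cko values lay below both wt values. Taken instead as the mean log2 level of the 4 adult genes minus that of the erythroid list, which gives Hba-a2 and Hbb-bt equal weight, the values were 3.66, 3.18, 2.75 and 3.41 and the groups overlapped (exact permutation p = 0.667, two-sided). Hepatocyte markers summed to 109 and 177 FPKM in wt and 76.1 and 87.7 FPKM in cko (10 of 11 tested genes lower, median -0.44). Neutrophil markers summed to 162409 and 138265 FPKM in wt and 112307 and 93337 FPKM in cko (9 of 16 lower, median -0.15). The part of these marker levels in the globin result was not tested.

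The genes whose values over the 4 libraries were nearest to the mean pattern of the adult globin genes were sought among 3814 genes averaging 10 FPKM or more. The globin mean, centred on the log2 scale, was 0.92 in wt 1, -0.03 in wt 2, -0.73 in cko 1 and -0.15 in cko 2. Among the 5 nearest genes were Rsad2, an interferon-induced antiviral enzyme (Euclidean distance 0.149), A530020G20Rik (0.220), Trim10, a gene of erythroblasts (0.241), and 1810037I17Rik (0.352). The globin mean gives Hba-a2 and Hbb-bt the same weight as Hba-a1 and Hbb-bs. Rsad2 had 23.7 FPKM in wt 2 and 23.6 FPKM in cko 2, where Hba-a1 had 1366 and 840 FPKM. With 4 libraries such a likeness is a description only.

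The change of the adult genes was followed over the other ways of fitting the values. Hba-a1, Hbb-bs and Hbb-bt kept their direction in each of them, and Hba-a2 did not. With values scaled by the summed FPKM of the outside genes, which moved the median of all tested genes to 0.27, Hba-a1 was at -0.76 and Hbb-bs at -0.85. The scaling factors were 1.11 and 1.04 in wt and 0.940 and 0.919 in cko, in the order of the total FPKM. The most abundant genes weigh most in such a sum. The top 10 genes held 46.6% and 42.3% of all FPKM in wt and 33.1% and 29.4% in cko, so this scaling also carries their differences. With the replicate number as a block, Hbb-bs kept its log2 fold change of -1.06 and had a p of 0.0118 (adjusted p = 0.330, limma), so that it no longer passed.

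**Figure D4:**
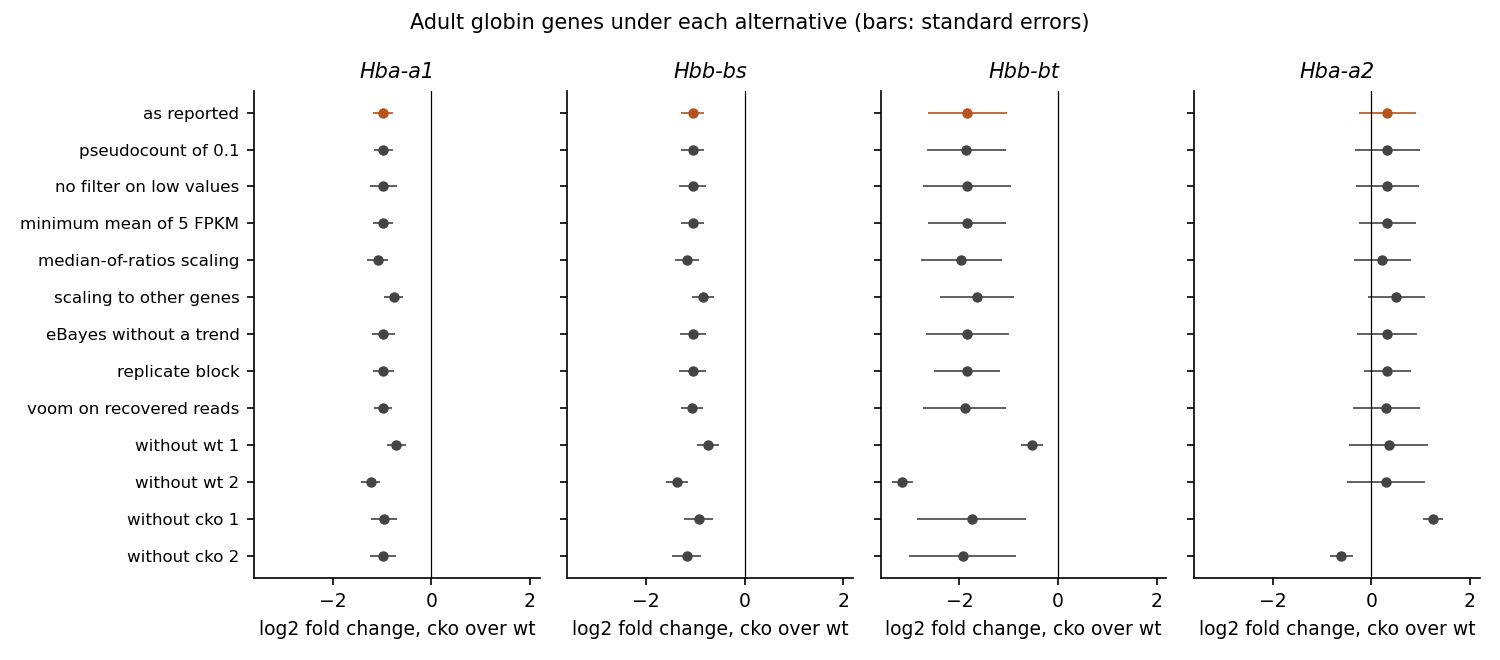
Log2 fold change of FPKM + 1 (cko over wt) with its standard error for the 4 adult globin genes, as reported (orange) and under each alternative named on the left. Hba-a1 and Hbb-bs stay below 0 throughout, Hbb-bt ranges from -3.16 to -0.53 with each wt library left out in turn, and Hba-a2 is at -0.61 without cko 2.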

How the data were processed

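RNA-seq was analysed for 4 libraries grouped by their labels. For each library the authors deposited a table of FPKM for 24706 genes. The methods name RPKM. Tools listed in the submitters' processing notes are Bowtie2 2.2.3, TopHat2 2.0.12 and HTSeq 0.6.0 with build mm9, whereas 92.6% of the gene positions, those of all 7 members included, were identical to GENCODE M21 (GRCm38). Counting settings are not given in the sources used here. Whole reads were recovered from FPKM and exon length, within 0.02 reads, for 91.3% of genes, members included. Values were not scaled further between libraries. A gene of 1 kb gained 0.0450 to 0.0565 FPKM per read, which limits the precision of low values.

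Groups were compared with limma 3.58.1 in R 4.3.3 (lmFit, eBayes with a trend) fitted to log2(FPKM + 1) of the 10779 genes that averaged 1 FPKM or more, with Benjamini-Hochberg adjustment. The fold change of low genes is understated on this scale. Both thresholds of the study were used. Ratios were tested with exact permutation tests over libraries (SciPy 1.17.1). Sequences came from GENCODE and RefSeq and were aligned with Biopython 1.88, and figures were drawn with matplotlib 3.10.9.

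The members and the 9 pathway and 10 cell type lists were chosen with earlier results of these data known. Named were all members, other globins above 0, list genes past the threshold of the results or otherwise the most abundant up to 3 per list, and the 5 genes nearest in pattern, of which some are not reported here. Alternatives were a pseudocount of 0.1, a minimum mean of 5 FPKM or none, and median-of-ratios scaling. Others were scaling to the summed FPKM of genes outside the globin, erythroid and hepatocyte lists, no trend, a replicate block, voom on recovered reads, and each library left out. Summed copies, the ratio of group means and a crossed block were added after seeing the data.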

Additional observations from a re-analysis of the deposited data

How the results depend on the processing

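All values are cko against wt, and the cause of each shift below was not tested. Over all genes 203 higher and 44 lower genes passed the threshold of the results and 0 that of the methods, where voom on recovered reads called 2 and the crossed block 1. Higher genes were 101 with a minimum mean of 5 FPKM and 348 with scaling to genes outside the globin, erythroid and hepatocyte lists. Lower genes were 27 without a filter, 25 with the minimum of 5 FPKM, 72 with median-of-ratios scaling and 17 with scaling to the outside genes. With a library left out, the counts were 110 to 404 higher, 26 to 76 lower and 0 by the methods. Of the list genes, 3 passed as lower and 1 as higher. Lower list genes were 1 without a filter or without a trend, 0 with scaling to the outside genes and 0 to 7 with a library left out. The higher list gene, Hmox1, was lost (0) without a filter, with median-of-ratios scaling, without a trend and with the replicate block, and with a library left out the count was 0 to 1.

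Hba-a1 passed at -1.09 with median-of-ratios scaling, and was -1.23 to -0.71 with a library left out, passing without wt 2. Hbb-bs did not pass without a filter (-1.06), with scaling to the outside genes (-0.85), without a trend (-1.06) or with the replicate block (-1.06), and was -1.37 to -0.75 with a library left out. Hba-a2 turned to -0.61 without cko 2 and passed at 1.26 without cko 1, and Hbb-bt passed at -3.16 without wt 2. As shares of recovered reads the differences were -0.0672 (alpha) and -0.0454 (beta) percentage points, on a scale without gene length. With a library left out, the shares of FPKM were -0.193 to -0.0937 (alpha) and -0.171 to -0.0500 (beta) percentage points. The log2 ratio of adult globins to erythroid genes was -0.50 with the mean log2 of the list and -0.48 to -0.28 with a library left out, that of alpha to beta 0.026 to 0.445, and the embryonic share of globin FPKM -0.0126 to 0.0202 percentage points.

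The labels give both groups the numbers 1 and 2 and no shared source. Replicate differences of wt and cko had a correlation of -0.16 across genes, which are not independent. With a replicate block, 215 genes passed as higher and 43 as lower, and with the crossed pairing 298 and 65. With 2 libraries per group, and with 0 to 4 reads per embryonic gene, depth limits what can be said of Hba-x, Hbb-bh1 and Hbb-y.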

Other observations

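Markers of other cell types of the liver were also measured. Monocyte markers summed to 510 and 489 FPKM in wt 1 and wt 2 and to 498 and 630 FPKM in cko 1 and cko 2, with 7 of 8 tested genes higher in cko and a median log2 fold change of 0.33. Macrophage markers summed to 389, 265, 267 and 450 FPKM, and 5 of 10 were higher (median 0.04). Endothelial markers summed to 31.8, 23.4, 27.0 and 36.5 FPKM, and megakaryocyte markers to 31.1, 17.1, 16.5 and 22.2 FPKM. In these lists the groups overlapped in their sums. Stab2, an endothelial scavenger receptor gene named here after its values were seen, passed the threshold of the results as higher, at 0.319 and 0.315 FPKM in wt and 3.61 and 4.76 FPKM in cko (log2 fold change 1.97, adjusted p = 0.183, limma).

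Lymphocyte and granulocyte markers had lower sums in both cko libraries. B cell markers summed to 56.3 and 70.6 FPKM in wt and 35.7 and 46.3 FPKM in cko, with all 7 tested genes lower (median -0.52). T cell markers summed to 9.13 and 12.3 FPKM in wt and 7.38 and 6.62 FPKM in cko. Mast cell, basophil and eosinophil markers summed to 303 and 141 FPKM in wt and 115 and 138 FPKM in cko, with the highest sum in wt 1, the library in which Hba-a1, Hbb-bs and Hbb-bt were also highest.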
